A study of Mus musculus with 4 samples.

Results

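A set of 8 genes that mark the transmitter of a neuron was followed here, 8 of the 32289 genes in the deposited tables: Slc32a1, Gad1, Gad2, Slc6a5, Slc17a6, Slc17a7, Slc18a3 and Chat. They were taken by name, as the rows with these symbols, but the set was chosen with earlier results of these data known. All 8 were found once in each table. The cells in which they were read most closely were those positive for Tubb3, which codes for a neuronal tubulin, 3370 of 14828 kept cells.

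The study measured the transcriptomes of single cells from mouse inner ear organoids, which were grown from 1 embryonic stem cell line, Atoh1-nGFP-ESC, in which GFP reports Atoh1, a transcription factor of hair cells and of several neuron types. The 4 groups were organoids at day 16, at day 20, and at day 21 split into cells of high and of low GFP signal, called GFP high and GFP low below. All 4 groups carry the reporter and no other treatment is labelled. The protocol speaks of sorting by GFP over all days, but a gate is named only at day 21. Each group had 1 library from 1 line, and how many organoids or cultures were pooled is not given in the sources used here. With 1 sample a group there is no replicate check and no p-value was computed. Intervals in the text are exact 95% intervals of counting error only, and 2 values are said to differ in size only where such intervals do not overlap.

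A neuron is named for the transmitter it loads into its synaptic vesicles. Inhibitory neurons make GABA from glutamate with the decarboxylases of Gad1 and Gad2, take up glycine through the transporter of Slc6a5, and load both with the vesicular transporter of Slc32a1. Excitatory neurons load glutamate with the vesicular transporters of Slc17a6 and Slc17a7, while cholinergic neurons make acetylcholine with the enzyme of Chat and load it with the transporter of Slc18a3. In the ear, hair cells use a further glutamate transporter, Slc17a8, which is not among the 8, and spiral and vestibular ganglion neurons are glutamatergic.

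The day 16 library kept 3371 cells, the day 20 library 4348, GFP high 3432 and GFP low 3677, with median depths of 15232, 8836.5, 28853.5 and 22174 UMIs (unique molecular identifiers, 1 for each captured RNA molecule). Between 1 and 8 kept barcodes were shared by a pair of libraries. A cell was Tubb3-positive with at least 2 Tubb3 UMIs and at least 5 per 10000 of its UMIs, which held for 1369 day 16 cells (40.6%), 664 day 20 cells (15.3%), 248 GFP high cells (7.23%) and 1089 GFP low cells (29.6%). All 13 neuron markers of a list reached 50 CPM (counts per 1000000 UMIs of the same cells) in the Tubb3-positive cells of every library. Tubb3 is itself on that list, so its place there was set by the choice of cells. The level is not particular to these cells. In other cells 12, 9, 12 and 11 of the 13 reached it inside a gate for Ccer2, and 9, 7, 3 and 4 inside a gate for hair cell genes. Between 90.3% and 96.7% of the Tubb3-positive cells also passed a threshold of 5 per 10000 on Stmn2, Elavl3 and Elavl4 summed. Markers of other cells were present too: Ccer2, a gene high in the Merkel-like cells of these organoids, stood at 4653, 2316, 3599 and 503 CPM in the Tubb3-positive cells of day 16, day 20 and the high and low gates, and 125, 25, 17 and 19 of these cells lay inside a gate for hair cell genes or for Ccer2. Of the 13 hair cell markers, 0 to 4 reached 50 CPM there, and none of the 13 was at 0. The part of such cells in the results below was not tested, except where values without them are given.

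The transmitter genes were not all neuronal in where their RNA lay. Slc32a1 was: 91.5% of its day 16 UMIs, 83.8% of those of day 20, 84.7% of those of GFP high and 91.7% of those of GFP low came from Tubb3-positive cells. Gad1 was not, with 81.5% and 73.0% at day 16 and day 20, 51.9% in GFP low and 7.15% in GFP high. In GFP high, where only 7.23% of cells were Tubb3-positive, cells inside the hair cell gate (at least 10 per 10000 UMIs over 8 hair cell genes, and not Tubb3-positive) held 72.7% of the Gad1, 62.5% of the Gad2 and 75.7% of the Slc17a6 UMIs, but 1.61% of the Slc32a1 UMIs. At day 16, day 20 and in GFP low, Tubb3-positive cells held most Gad2 UMIs (2869 of 3289, 498 of 616 and 1514 of 1769). The same held there for Slc17a6 (1436 of 1662, 395 of 492 and 2826 of 3244). The hair cell gate took 508, 841, 2477 and 1118 cells of the 4 libraries. In GFP high these were 2477 of 3432 kept cells, so a gene spread evenly over cells would also lie mostly in this gate. Over all kept cells of GFP high Gad1 stood at 32.7, Gad2 at 10.3 and Slc17a6 at 27.0 CPM, to be read beside the levels inside the gate given below.

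**Figure D1:**
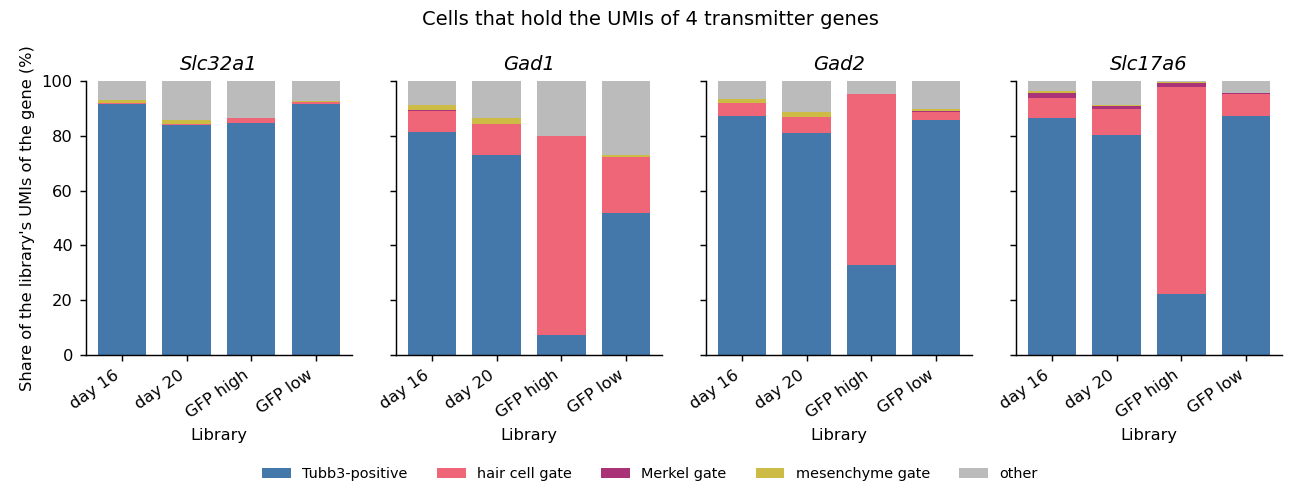
Stacked bars give the share of a library's UMIs of each gene (vertical axis, percent) that lay in Tubb3-positive cells, cells inside the hair cell, Merkel or mesenchyme gate, and all other kept cells, for the 4 libraries (horizontal axis). Tubb3-positive cells held over 80% of Slc32a1 in every library. In GFP high the hair cell gate held 72.7% of Gad1 and 75.7% of Slc17a6, where it took 2477 of the 3432 kept cells.

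Gad1 in hair cell gated cells stood at 12.9 CPM (10.9 to 15.1) at day 16, 14.4 (12.0 to 17.1) at day 20, 32.0 (30.8 to 33.3) in GFP high and 40.1 (37.7 to 42.7) in GFP low. Over the whole gate both day 21 libraries lay above both earlier ones. Slc17a6 in the same cells stood at 10.4, 5.16, 27.6 and 10.5 CPM, with GFP high above the other three, and Gad2 at 13.1, 4.04, 8.63 and 2.28 CPM. Slc32a1, without which GABA is not loaded into vesicles, was at 0.682, 0.561, 0.0503 and 0.707 CPM. After each cell was thinned to 5000 UMIs, 13.4% of hair cell gated cells in GFP high and 16.2% in GFP low had a Gad1 UMI, and 38.4% and 33.9% had one without thinning (median depths 30206 and 23202 UMIs). Cells inside the mesenchyme gate, set beside them for comparison, gave 3.85% and 4.17% after thinning, from 52 and 120 cells. Their median depths were 21576.5 and 20759 UMIs before thinning, and whether they lack the gene was not tested. Of the hair cell gated cells 358, 712, 599 and 143 were also high in Ccer2, so the gate was split at the Ccer2 threshold of 50 per 10000 UMIs after this was seen. In GFP high Slc17a6 stood at 34.7 CPM in the 1878 cells below that threshold and 6.70 CPM in the 599 above it, while Gad1 stood at 30.9 and 35.1 CPM. Below the threshold Gad1 stood at 20.3, 43.6, 30.9 and 41.6 CPM in the 4 libraries, so that day 20 was then no longer below the day 21 libraries, and above it at 7.95, 5.42, 35.1 and 26.8. Beyond the gates, other kept cells held Gad1 at 23.5, 28.0, 35.2 and 35.8 CPM.

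In Tubb3-positive cells the genes of inhibitory transmission were present in every library. Slc32a1 stood at 76.0 CPM (72.6 to 79.4) at day 16, 97.0 (90.6 to 103.8) at day 20, 34.6 (30.1 to 39.7) in GFP high and 88.0 (84.5 to 91.7) in GFP low. GFP high was the lowest, and its interval lay apart from the other three. Gad1, which codes for the decarboxylase GAD67, stood at 64.1 (61.0 to 67.3), 96.1 (89.7 to 102.8), 41.1 (36.1 to 46.5) and 99.2 CPM (95.4 to 103.0), again lowest in GFP high, with day 20 and GFP low not differing beyond counting error. Gad2, which codes for GAD65, had another order: 112.5 CPM (108.5 to 116.7) at day 16, then 57.6 (52.7 to 62.9), 58.8 (52.9 to 65.2) and 57.4 (54.6 to 60.4) for day 20, GFP high and GFP low, which overlapped. Slc6a5, the glycine transporter, was scarcer, at 4.24 CPM (3.48 to 5.12), 3.24 (2.15 to 4.68), 8.54 (6.38 to 11.2) and 8.57 (7.49 to 9.77), with both day 21 libraries above both earlier ones. Levels of different genes are not compared here, since the counts carry no length scaling.

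The glutamate transporter Slc17a6 stood at 56.3 CPM (53.5 to 59.3) at day 16, 45.7 (41.3 to 50.5) at day 20, 105.6 (97.6 to 114.1) in GFP high and 107.2 (103.3 to 111.2) in GFP low. The day 21 libraries overlapped and lay above the earlier ones. Slc17a7, the other vesicular glutamate transporter, stood at 4.08 (3.33 to 4.94), 2.08 (1.24 to 3.29), 14.8 (11.9 to 18.2) and 5.88 CPM (4.99 to 6.88). GFP high was the highest, though 10 cells held 48.9% of its 90 Slc17a7 UMIs. Of the cholinergic genes, Slc18a3 gave 18, 18, 3 and 59 UMIs (0.706, 2.08, 0.493 and 2.24 CPM), with 12 the most in 1 cell. Chat gave 8, 2, 2 and 17 UMIs in all Tubb3-positive cells. Slc18a3 (chr14:32462438-32464850, minus strand, GRCm38) lies inside Chat (chr14:32408203-32465989, minus strand) and overlaps 0 exons of Chat, on the same strand, where unspliced Chat RNA and Slc18a3 RNA cannot be told apart by position. The other 6 lie on chromosome 2 (Slc32a1, Gad1, Gad2) or 7 (Slc6a5, Slc17a6, Slc17a7), all on the plus strand.

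**Figure D2:**
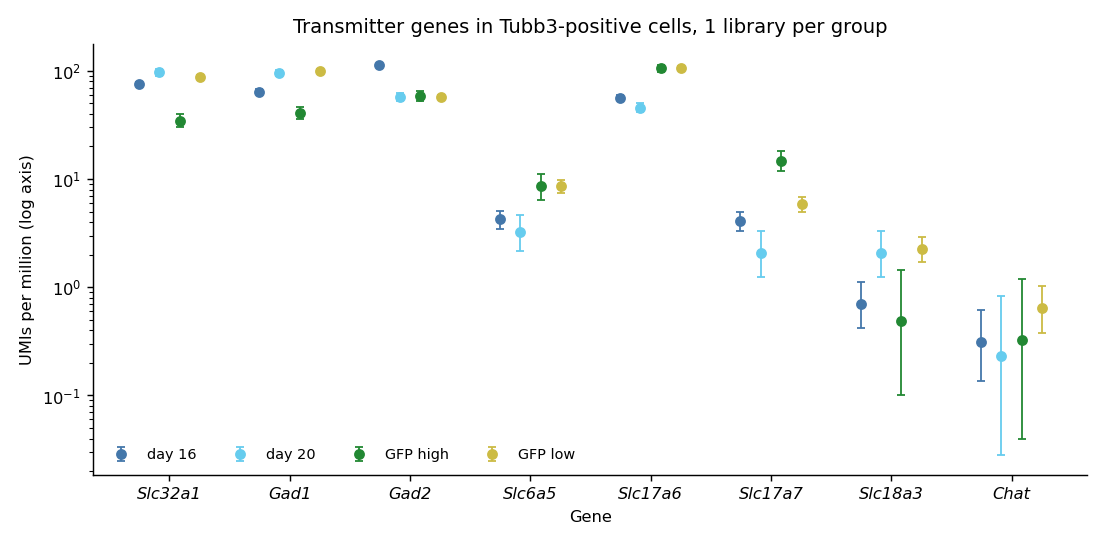
Points give the counts per 1000000 UMIs (vertical log axis) of each of the 8 genes (horizontal axis) over the Tubb3-positive cells of each library, and bars the exact 95% Poisson interval. Slc32a1 and Gad1 were lowest in GFP high, Gad2 highest at day 16, and both day 21 libraries lay above the earlier ones for Slc6a5 and Slc17a6.

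Set against GFP low, the Tubb3-positive cells of GFP high held less Slc32a1 and Gad1 and more Slc17a7. A gene was called higher or lower at a CPM ratio of 2 or more either way with an interval that excludes 1, if it had 5 CPM in either library and 30 UMIs over both. The ratio GFP high over GFP low was 0.394 for Slc32a1 (0.340 to 0.453), 0.414 for Gad1 (0.362 to 0.472) and 2.51 for Slc17a7 (1.92 to 3.28). Gad2 at 1.02 (0.910 to 1.15), Slc6a5 at 0.996 (0.722 to 1.35) and Slc17a6 at 0.985 (0.903 to 1.07) were not called, and their intervals held 1. So 3 of the 6 members with enough UMIs were called, where 6.54% of 11529 genes were called, 2 of them lower (background 2.62%) and 1 higher (3.92%). Chat and Slc18a3 had too few UMIs. With the mean of per-cell CPM the Gad1 log2 ratio was -0.99 and missed the ratio of 2, and with any cell of 1 Tubb3 UMI the Slc17a7 log2 ratio was 0.60.

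Over all kept cells the same comparison gave 1 call among 4 members with enough UMIs, where 17% of 12403 genes were called (9.92% lower, 7.08% higher). Slc32a1 was that one, at 2.33 CPM in GFP high against 27.2 in GFP low, a ratio of 0.0856 (0.0748 to 0.0975). Gad1 stood at 32.7 against 54.1 CPM, Gad2 at 10.3 against 19.0 and Slc17a6 at 27.0 against 34.9, ratios of 0.604, 0.540 and 0.776. The share of Tubb3-positive cells, 7.23% against 29.6%, moved with these values.

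Day 20 against day 16 gave 0 calls among the 4 members with enough UMIs in Tubb3-positive cells, where 9.75% of 11225 genes were called. The ratios were 1.28 for Slc32a1 (1.18 to 1.39), 1.499 for Gad1 (1.38 to 1.63), 0.812 for Slc17a6 (0.724 to 0.908) and 0.512 for Gad2 (0.465 to 0.564), just short of the size asked for. Gad2 passed it without the cells inside the hair cell or Merkel gate, at a log2 ratio of -1.07. The intervals of Gad1 and Gad2, genes for the same enzymatic step, thus lay on opposite sides of 1. Over all kept cells Gad2 (14.6 against 57.2 CPM, ratio 0.255, 0.233 to 0.278) and Slc17a6 (11.6 against 28.9 CPM, ratio 0.403, 0.364 to 0.446) were called lower, 2 of 4 against a background of 12.9% (7.49% lower, 5.46% higher), beside a fall of the Tubb3-positive share from 40.6% to 15.3%.

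Each Tubb3-positive cell was then given a transmitter class from at least 1 UMI after thinning to 5000 UMIs, with 223, 127, 3 and 57 cells too shallow to enter. Inhibitory cells, with Slc32a1, Gad1, Gad2 or Slc6a5 alone, were 527 of 1146 cells at day 16 (46.0%, 43.1 to 48.9%), 211 of 537 at day 20 (39.3%, 35.1 to 43.6%), 64 of 245 in GFP high (26.1%, 20.7 to 32.1%) and 355 of 1032 in GFP low (34.4%, 31.5 to 37.4%). Neither the GFP gates nor the earlier days were apart, since the intervals overlapped, though under 8 of 13 other settings those of GFP high and GFP low did not. Excitatory cells, with Slc17a6 or Slc17a7 alone, made up 14.6% (12.6 to 16.7%), 10.2% (7.81 to 13.1%), 24.5% (19.2 to 30.4%) and 26.6% (23.9 to 29.4%). The day 21 gates overlapped, and both lay above both earlier libraries. Among cells of these classes the inhibitory share was 75.9% (72.6 to 79.1%) at day 16, 79.3% (74.0 to 84.0%) at day 20, 51.6% (42.5 to 60.7%) in GFP high and 56.4% (52.5 to 60.4%) in GFP low. The inhibitory class rests in part on cells with Gad1, Gad2 or Slc6a5 and no Slc32a1 UMI. Slc32a1 was found after thinning in 308, 156, 35 and 264 Tubb3-positive cells of the 4 libraries. In GFP high the inhibitory interval overlapped the excitatory one, so their order is not resolved there. In the other libraries the inhibitory share lay above the excitatory one with intervals apart. At full depth this held at day 16 and day 20, but in GFP low the intervals overlapped (36.1 to 42.0% and 32.1 to 37.8%). The inhibitory class also draws on more genes than the excitatory one. Cells with Slc32a1 and no Slc17a6 after thinning numbered 302, 156, 35 and 258 in the 4 libraries. Those with Slc17a6 and no Slc32a1 numbered 178, 53, 49 and 263.

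Cholinergic cells were 3, 2, 0 and 8 (0.262%, 0.372%, 0% and 0.775%). With 0 of 245 in GFP high, the share of cells with cholinergic genes alone could be up to 1.22% by the limit of 3 counts. The exact interval, which is wider, reached up to 1.49%. In GFP high 1 cell had a cholinergic UMI beside an inhibitory one and 1 beside an excitatory one. Cells with no UMI of the 8 genes made up 36.0%, 49.3%, 47.3% and 36.4%, more than the inhibitory cells at day 20 and in GFP high with intervals apart. Without thinning the inhibitory shares were 50.9%, 46.2%, 29.8% and 39.0%, the excitatory shares 20.7%, 17.2%, 39.1% and 34.9%, and the shares with no UMI 18.5%, 33.9%, 24.2% and 18.5%. At full depth the excitatory share stood above the inhibitory one in GFP high alone, with intervals that overlapped (33.0 to 45.5% and 24.2 to 36.0%). Mesenchyme gated cells gave 2.997%, 0.920%, 3.85% and 5% inhibitory and 1.499%, 0.184%, 0% and 0.833% excitatory calls after thinning, far under the shares in Tubb3-positive cells. Hair cell gated cells were called inhibitory in 7.21%, 4.73%, 16.2% and 17.3%, where a Slc32a1 UMI was found in at most 0.464% of these cells.

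**Figure D3:**
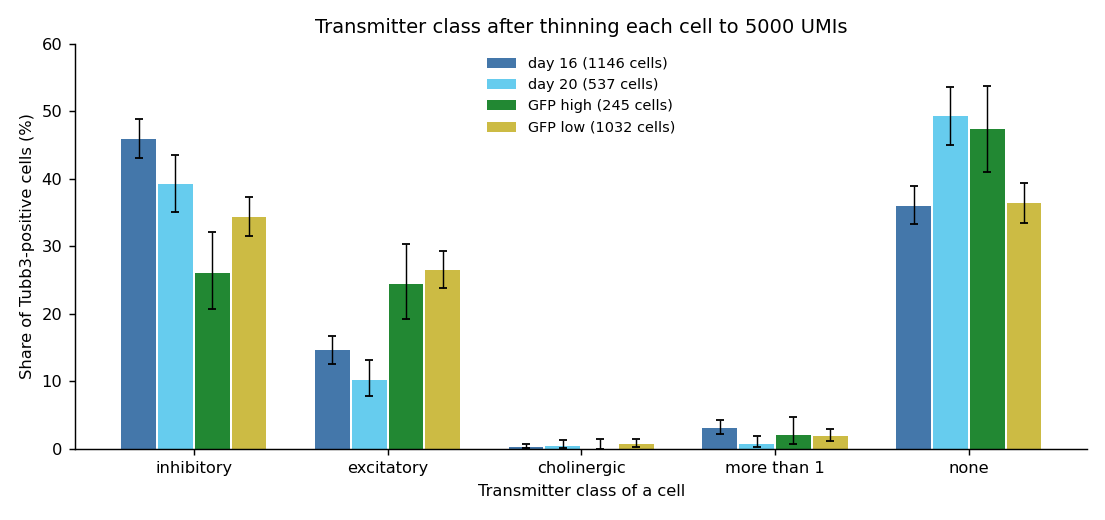
Bars give the share of Tubb3-positive cells (vertical axis, percent) in each transmitter class (horizontal axis) per library after thinning to 5000 UMIs, with exact 95% Clopper-Pearson intervals and the number of cells in the legend. The inhibitory class ran from 26.1% to 46.0%, the excitatory one from 10.2% to 26.6%, and cholinergic cells stayed under 1%.

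The inhibitory genes were found together. Among cells with a Slc32a1 UMI at full depth, Gad1 was found in 70.7%, 74.2%, 71.2% and 80.8% at day 16, day 20, GFP high and GFP low, against 16.3%, 8.82%, 5.49% and 7.07% of Tubb3-positive cells without Slc32a1. Gad2 was found in 83.1%, 61.3%, 78.8% and 72.5%, against 22.0%, 9.80%, 8.79% and 7.36%. Both decarboxylase genes were seen in 62.3%, 48.0%, 57.6% and 62.4% of Slc32a1 cells. Gad2 without Gad1 was seen in 20.8% (17.6 to 24.2%) at day 16 and 13.3% (9.38 to 18.1%) at day 20, which overlapped. Gad1 without Gad2 was seen in 8.38% (6.28 to 10.9%) and 26.2% (20.9 to 32.0%), which were apart. After thinning both were apart, at 31.8% (26.7 to 37.3%) against 14.1% (9.05 to 20.6%) and 16.6% (12.6 to 21.2%) against 30.8% (23.6 to 38.6%). These differences had the direction of the 2 genes' levels. In GFP low the full-depth shares of Gad2 alone and Gad1 alone were 10.1% and 18.4%, and in GFP high 21.2% and 13.6%, of 66 cells. Neither gene was seen in 7.58% to 12.5% of Slc32a1 cells at full depth, and in 22.1%, 25%, 25.7% and 22.7% after thinning. Both genes were then seen in 29.5%, 30.1%, 22.9% and 29.5%. At day 16 Gad1 was found after thinning in 46.1% of Slc32a1 cells and 15.9% of the others.

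Most cells with the glycine transporter gene Slc6a5, itself a gene of the inhibitory class, also had Slc32a1 at full depth. Of the 74, 26, 29 and 134 cells with Slc6a5, 89.2%, 80.8%, 86.2% and 87.3% had Slc32a1, against 41.0%, 36.8%, 18.7% and 29.2% of the cells without it. In turn Slc6a5 was found in 11.1%, 8.20%, 37.9% and 29.5% of Slc32a1 cells at full depth (8.65 to 13.8%, 5.15 to 12.3%, 26.2 to 50.7% and 25.1 to 34.3%). After thinning the shares were 4.87% (2.75 to 7.91%), 4.49% (1.82 to 9.03%), 20% (8.44 to 36.9%) and 10.98% (7.48 to 15.4%), where GFP high and day 16 alone were apart among the pairs of a day 21 and an earlier library. Slc17a6 was found in 0 of the 29 Slc6a5 cells of GFP high and 0 of the 26 of day 20, and in 9.46% and 6.72% of those of day 16 and GFP low.

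Slc32a1 and Slc17a6 were rarely seen in 1 cell. Cells with Slc17a6 had Slc32a1 in 15.3%, 0.893%, 4.60% and 5.13%, against 53.9%, 46.2%, 38.5% and 55.1% of cells without Slc17a6. After thinning, 6, 0, 0 and 6 cells had both. More than 1 class was called in 3.14%, 0.745%, 2.04% and 1.84% of cells after thinning and in 9.64%, 1.96%, 6.85% and 6.34% without it. At day 16 the cells with more than 1 class after thinning had a median of 26151.5 UMIs before it, against 17627 in cells of 1 class. The medians were 29298 against 21344 in GFP high and 26741 against 22508 in GFP low. At day 20, with 4 such cells, the order was the other way, at 11045 against 13069.5. Slc17a7 cells overlapped with Slc17a6 cells: 43.4% of 76 at day 16, 41.9% of 43 in GFP high and 52.6% of 76 in GFP low had Slc17a6, against 25.8%, 33.7% and 36.4% of cells without Slc17a7, with intervals apart at day 16 and in GFP low. After thinning they overlapped in both, at 28.6% of 21 against 15.8% at day 16 and 27.6% of 29 against 26.0% in GFP low.

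Tubb3-positive cells were next split by a UMI of each of 4 transcription factors after thinning. Lhx9 and Otp are homeodomain factors of particular neuron groups of the brain, Neurod1 is a basic helix-loop-helix factor that drives neurons, inner ear ganglion neurons among them, to differentiate, and Zic1 is a zinc finger factor of the dorsal neural tube. Lhx9 was found in 18.2%, 8.38%, 1.63% and 3.29% of the cells of day 16, day 20, GFP high and GFP low, Otp in 0.785%, 3.54%, 9.80% and 19.6%, Neurod1 in 31.7%, 34.5%, 44.9% and 27.3%, and Zic1 in 36.6%, 39.1%, 16.3% and 14.5%. A split was read only with 20 cells on each side. Cells of a library are not replicates, so these are descriptions of each library.

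Lhx9-positive cells were more often excitatory and less often inhibitory than the others. Their inhibitory share was 6.25% (3.37 to 10.5%) of 208 cells at day 16, 2.22% (0.0562 to 11.8%) of 45 at day 20 and 11.8% (3.30 to 27.5%) of 34 in GFP low, against 54.8%, 42.7% and 35.2% of the cells without Lhx9. The excitatory share was 45.7%, 37.8% and 55.9%, against 7.68%, 7.72% and 25.6%. The intervals were apart for both classes in all 3 libraries, and GFP high had only 4 Lhx9 cells. Slc17a6 stood at 159.1 CPM with and 30.8 CPM without Lhx9 at day 16, a ratio of 5.17 (4.63 to 5.76), at 159.5 and 29.3 CPM at day 20 (5.44, 4.33 to 6.81), and at 179.8 and 103.9 CPM in GFP low (1.73, 1.46 to 2.04). Slc32a1 stood at 14.9 and 86.6 CPM at day 16. At day 20 no Slc32a1 UMI was found in the 45 Lhx9 cells against 102.2 CPM in the others, at least 26.7-fold lower by the limit of 3 counts over those cells, while the exact interval of the ratio, which is wider, reached up to 0.0462. In GFP low Slc32a1 stood at 63.9 and 88.0 CPM and Gad1 at 88.7 and 99.5, and neither was called. Of the members with enough UMIs, 3 were lower (Slc32a1, Gad1 and Gad2) and 1 higher (Slc17a6) at day 16, where 5.26% and 1.86% of genes were (7.12% either way), the same 4 at day 20 (6.26% and 2.95%, 9.21% either way), and 2 were lower in GFP low (5.61%), Gad2 and Slc6a5, with 0 higher (3.38%, 8.99% either way).

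Zic1-positive cells were more often inhibitory. The share was 72.6% (68.1 to 76.8%) of 420 cells at day 16, 55.2% (48.2 to 62.1%) of 210 at day 20, 42.5% (27.0 to 59.1%) of 40 in GFP high and 60% (51.7 to 67.9%) of 150 in GFP low, against 30.6%, 29.1%, 22.9% and 30.05% without Zic1. The intervals were apart in all libraries but GFP high. The excitatory share was lower, at 6.67%, 5.24%, 12.5% and 16.0% against 19.1%, 13.5%, 26.8% and 28.3%, again apart except in GFP high. Slc32a1 stood at 131.4 and 42.3 CPM with and without Zic1 at day 16 (ratio 3.11, 2.83 to 3.42), 177.2 and 48.4 at day 20 (3.66, 3.15 to 4.26), 52.3 and 31.7 in GFP high (1.65, 1.17 to 2.30) and 227.1 and 66.7 in GFP low (3.40, 3.11 to 3.71). Gad1 was called higher in all 4 libraries, with ratios of 2.16 (1.96 to 2.40), 4.84 (4.12 to 5.70), 2.33 (1.75 to 3.08) and 4.87 (4.498 to 5.27). The members called higher were 4, 3, 1 and 3 in the 4 libraries, where 1.32%, 3.68%, 2.98% and 2.8% of genes were (5.05%, 9.52%, 10% and 7.31% either way). Slc17a6 was called lower at day 16, day 20 and in GFP high, at ratios of 0.389 (0.337 to 0.449), 0.171 (0.112 to 0.251) and 0.438 (0.316 to 0.594), beside a background of 3.72%, 5.84% and 7.02%, and in GFP low Slc17a7 was the one lower (4.51%). Slc6a5 was higher with Zic1 at day 16 (6.70 against 2.36 CPM) and gave a ratio of 1.08 (0.710 to 1.59) in GFP low. Zic1 was found in 21.6%, 11.1% and 26.5% of the Lhx9 cells of day 16, day 20 and GFP low.

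Otp-positive cells could be read in the day 21 libraries alone, since 9 and 19 were found at day 16 and day 20. In GFP high 54.2% (32.8 to 74.4%) of 24 Otp cells were inhibitory against 23.1% (17.7 to 29.2%) of the others, and in GFP low 41.6% (34.7 to 48.7%) of 202 against 32.7% (29.5 to 36.0%), which overlapped. The Otp cells of GFP high held more Slc32a1 (97.1 against 28.6 CPM, ratio 3.40, 2.44 to 4.67), more Gad2 (186.8 against 46.3 CPM, 4.04, 3.18 to 5.10) and more Gad1 (78.8 against 37.4 CPM, 2.11, 1.48 to 2.94), 3 calls beside a background of 3.16%, with Slc17a6 and Slc17a7 lower (11.4%, 14.6% either way). After thinning to 3000 UMIs the inhibitory difference there was 22.5 points and its intervals overlapped. In GFP low the pattern was another: Slc32a1 stood at 85.7 and 87.5 CPM, Gad1 was lower at 54.4 against 109.5 CPM (0.497, 0.436 to 0.564) and Slc6a5 higher at 15.5 against 6.77 CPM (2.29, 1.71 to 3.05), 1 call higher beside 2.05% and, with Slc17a7, 2 lower beside 8.57% (10.6% either way). Slc17a7 gave 1 and 3 UMIs in the Otp cells of GFP high and GFP low, with 1.83 against 16.1 CPM in GFP high (ratio 0.114, 0.00285 to 0.651) and 0.613 against 7.10 CPM in GFP low (0.0863, 0.0176 to 0.257).

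Neurod1 went with Slc17a7. With and without Neurod1 this transporter stood at 9.30 and 0.885 CPM at day 16 (ratio 10.5, 5.93 to 20.1), 29.4 and 3.76 CPM in GFP high (7.83, 4.32 to 15.4) and 9.51 and 4.71 CPM in GFP low (2.02, 1.44 to 2.82), and 12 of 16 UMIs at day 20 lay in Neurod1 cells. The members called higher with Neurod1 were 2 at day 16 (Slc17a7 and Slc6a5, background 4.82%, with 0 lower beside 2.45% and 7.28% either way), 0 at day 20 (3.53%, with 0 lower beside 6% and 9.53% either way), and Slc17a7 alone in GFP high (5.74%, 9.17% either way) and in GFP low (3.02%, 6.02% either way). The classes did not follow 1 direction. Inhibitory cells made up 36.6% of 363 Neurod1 cells against 50.3% at day 16, 32.4% of 185 against 42.9% at day 20, 15.5% of 110 against 34.8% in GFP high and 36.9% of 282 against 33.5% in GFP low, with intervals apart at day 16 and in GFP high. Excitatory cells made up 16.0% against 13.9%, 8.11% against 11.4%, 31.8% against 18.5% and 16.0% against 30.5%, apart in GFP low alone. The ratios of both transporters lay on opposite sides of 1 in the GFP gates. Slc32a1 stood at 18.0 against 47.4 CPM in GFP high (0.379, 0.268 to 0.527) and 107.2 against 80.7 in GFP low (1.33, 1.21 to 1.45). Slc17a6 stood at 115.0 against 97.1 CPM in GFP high (1.18, 1.01 to 1.39) and 52.7 against 123.8 CPM in GFP low (0.425, 0.379 to 0.477). The difference between the gates was not tested. In GFP high 2 members were lower with Neurod1 (Slc32a1 and Slc6a5, background 3.43%), and in GFP low 1 (Slc17a6, background 3%). Without the cells inside the hair cell or Merkel gate the excitatory difference was 13.5 points in GFP high and -14.9 points in GFP low. After thinning to 3000 UMIs it was -2.73 points in GFP high, so its direction there was not stable, and with any cell of 1 Tubb3 UMI the inhibitory difference at day 16 was 0.28 points in place of -13.7.

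**Figure D4:**
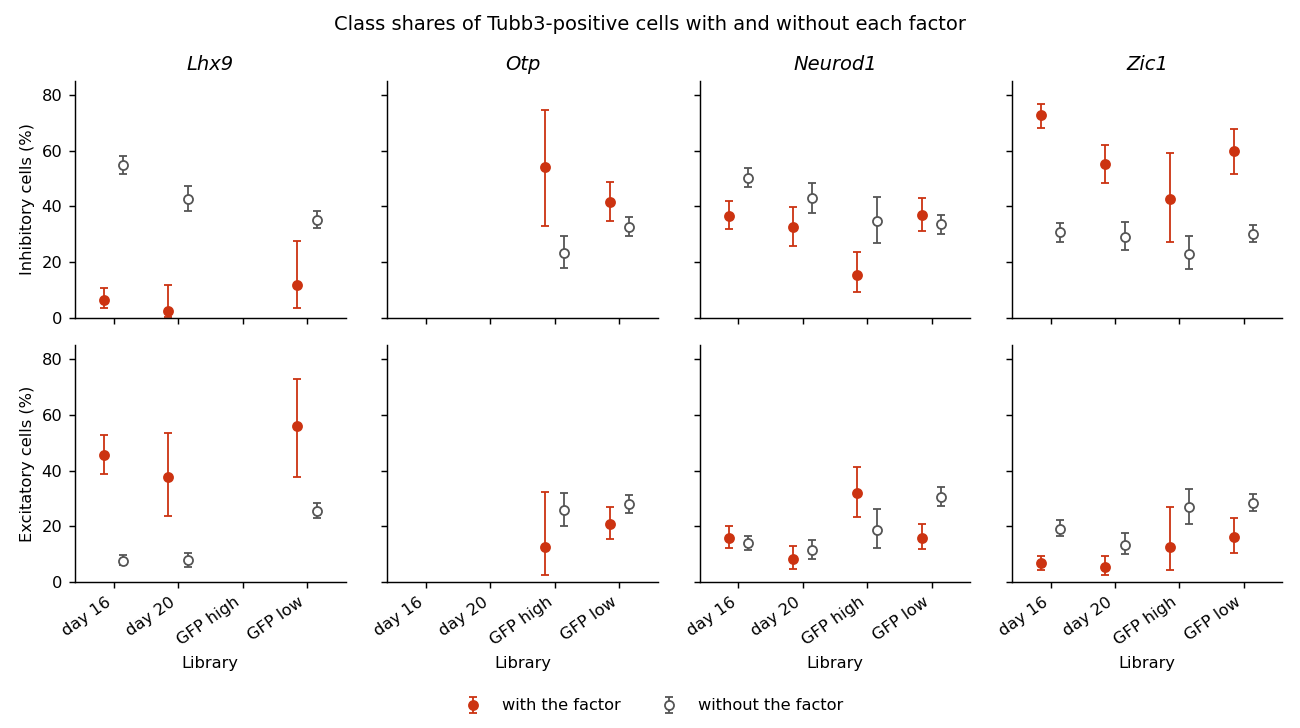
Points give the inhibitory (upper panels) and excitatory (lower panels) share of Tubb3-positive cells (vertical axis, percent) with a UMI of Lhx9, Otp, Neurod1 or Zic1 (filled) and without (open) in each library (horizontal axis), with exact 95% intervals, and splits under 20 cells left out. Lhx9 cells lay low for the inhibitory and high for the excitatory class in 3 libraries, Zic1 cells the other way round, and for Neurod1 cells the intervals were apart for the inhibitory class at day 16 and in GFP high and for the excitatory class in GFP low.

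To see what else set these neurons apart, cells with Slc32a1 and no Slc17a6 UMI at full depth were set against cells with Slc17a6 and no Slc32a1 UMI in each library (541 against 310 cells at day 16, 255 against 111 at day 20, 62 against 83 in GFP high and 375 against 388 in GFP low). Slc32a1 and Slc17a6 chose the cells, so their own values are no finding. Of 9199 genes with enough UMIs in all 4 libraries, 40 were higher in the Slc32a1 cells of every library (0.435%) and 73 lower (0.794%). In each library alone 9.04% to 13.1% of genes were called. The Slc17a6 cells were the deeper ones in each library, with medians of 18373.5, 14497, 24234 and 25046 UMIs against 16343, 11788, 21452 and 20910, and with cells set after thinning 37 genes (0.479%) and 51 genes (0.661%) of 7717 passed in all 4. The genes at 50 CPM or more on the Slc32a1 side, ranked by their smallest ratio over the libraries, were Gm14204, Pax2, Pnoc, Lhx5, Tfap2a, Nrxn3, Lhx1 and Unc5c. Pax2, a paired box factor of inhibitory interneurons and of the otic placode, stood at 124.5 against 6.88 CPM at day 16, 84.5 against 2.98 at day 20, 226.8 against 14.2 in GFP high and 202.6 against 10.7 in GFP low. Pnoc, which codes for the neuropeptide precursor of nociceptin, stood at 63.6 against 6.42, 141.3 against 13.1, 213.5 against 24.2 and 205.5 against 6.92 CPM. The LIM homeodomain genes Lhx1 and Lhx5 and the AP-2 factor gene Tfap2a followed, with Lhx5 at 164.2 against 4.58 CPM at day 16. On the Slc17a6 side stood Lhx2, Nrn1, Cacna2d1, Gng8, Shox2, Tesc, Sncg and Tmem163. Lhx2, a LIM homeodomain factor gene, stood at 478.4 against 33.4, 131.8 against 0.877, 545.2 against 14.1 and 290.8 against 4.51 CPM. Gng8, a G protein gamma subunit gene, was at 420.9 CPM in the Slc17a6 cells of GFP high against 78.7 to 168.9 in the other three, and at 1.30 to 17.7 in the Slc32a1 cells.

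**Figure D5:**
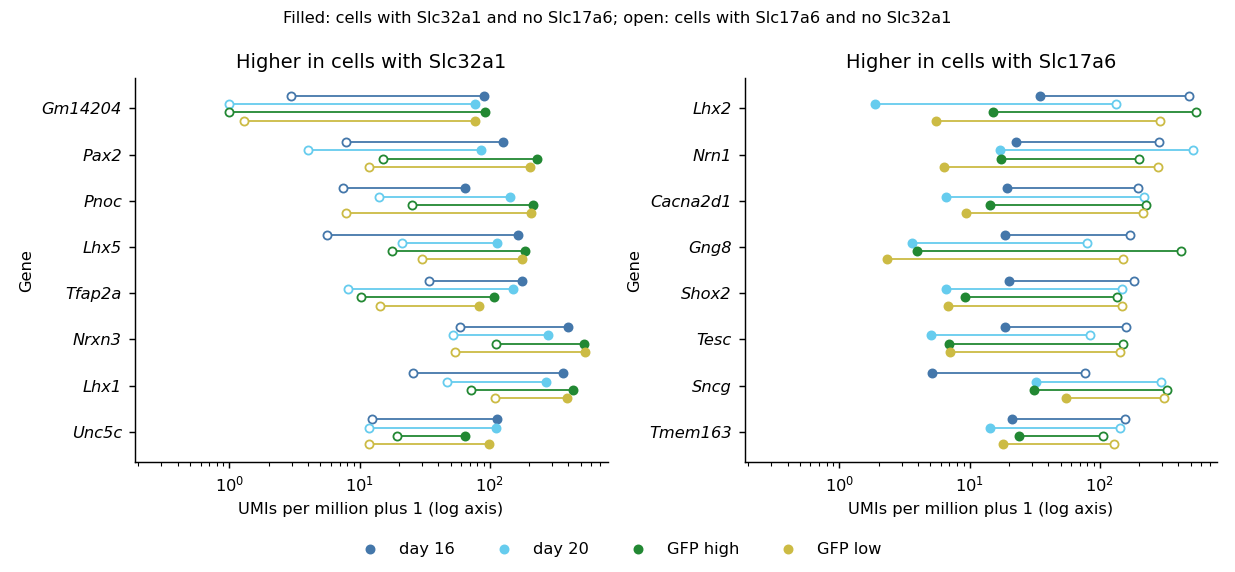
Each line joins the level of a gene (counts per 1000000 UMIs, plus 1, log axis) in cells with Slc32a1 and no Slc17a6 (filled) and in cells with Slc17a6 and no Slc32a1 (open), for the 8 genes that lead each side, coloured by library. Gm14204 and Pax2 lead the Slc32a1 side and Lhx2 the Slc17a6 side, with filled and open points on the same side in all 4 libraries.

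Gm14204, first in the ranking at full depth and second to Pax2 among cells set after thinning (smallest ratios 15.7 and 16.6), is the neighbour of Slc32a1. This gene (chr2:158595472-158610723, minus strand, annotated as a processed transcript) starts 43 bases before Slc32a1 (chr2:158610767-158615748, plus strand, GENCODE M21 on GRCm38) and runs the other way, so the annotated genes do not overlap. In Tubb3-positive cells it stood at 40.2 CPM (37.7 to 42.7) at day 16, 33.3 (29.6 to 37.4) at day 20, 20.9 (17.4 to 24.8) in GFP high and 26.1 (24.1 to 28.1) in GFP low. It was found in 53.9%, 47.7%, 66.7% and 63.4% of cells with Slc32a1 and in 6.87%, 4.90%, 1.65% and 3.03% of those without, and Tubb3-positive cells held 95.2%, 86.5%, 88.2% and 89.9% of its UMIs. In the Slc17a6 cells of day 20 and GFP high it had no UMI. The window of RefSeq around the Slc32a1 start (chr2:158610508-158610807, plus strand, GRCm38.p6) is shown because it covers both starts, with the 43 bases between them in capitals.
Slc32a1: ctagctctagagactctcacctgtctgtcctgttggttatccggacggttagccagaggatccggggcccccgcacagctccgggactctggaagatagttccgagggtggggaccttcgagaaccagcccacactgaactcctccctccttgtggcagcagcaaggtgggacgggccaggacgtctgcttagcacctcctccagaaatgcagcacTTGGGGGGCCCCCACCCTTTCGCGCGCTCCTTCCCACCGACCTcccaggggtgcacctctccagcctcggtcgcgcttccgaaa

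Promoter windows of the table given (250 bases before to 50 after a RefSeq start, GRCm38.p6) matched all 8 members, with 10 windows. They were searched on both strands for TAATTA, a homeodomain core that factors such as Lhx9 and Otp can bind, and for the E-boxes CAGCTG and, as the other E-box searched, CATCTG, which basic helix-loop-helix factors such as Neurod1 can bind. The latter reads CAGATG on the opposite strand. Of all 32851 windows 5.29% held the homeodomain core, 16.3% the first E-box and 17.2% the second, and 34.2% at least 1. Of the 10 member windows, 4 held at least 1 motif. They were a window of Slc6a5 (the second E-box at base 160), that of Chat (the first E-box at base 101), and 2 that are shown with the matches in capitals, 1 for an inhibitory and 1 for an excitatory gene: that of Gad2 (chr2:22622077-22622376, plus strand) and the downstream of 2 windows of Slc17a6 (chr7:51624387-51624686, plus strand). Bases are counted from 1 at the 5′ end of a window. Such a match is a description of the letters and not a binding site.
Gad2: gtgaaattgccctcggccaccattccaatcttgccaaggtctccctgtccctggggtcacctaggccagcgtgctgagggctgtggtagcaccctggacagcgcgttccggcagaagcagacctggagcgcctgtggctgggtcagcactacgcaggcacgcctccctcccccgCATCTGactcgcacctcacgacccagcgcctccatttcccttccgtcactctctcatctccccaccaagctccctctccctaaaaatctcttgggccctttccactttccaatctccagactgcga
Slc17a6: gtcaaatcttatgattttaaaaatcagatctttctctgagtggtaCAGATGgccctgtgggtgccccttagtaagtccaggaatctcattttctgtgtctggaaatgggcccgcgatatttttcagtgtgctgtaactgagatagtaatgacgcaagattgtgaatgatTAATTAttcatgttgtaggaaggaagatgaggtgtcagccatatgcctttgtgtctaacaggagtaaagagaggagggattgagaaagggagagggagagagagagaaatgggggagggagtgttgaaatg

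Genes that handle, sense or specify transmitters were followed in 10 lists of 122 genes, chosen with earlier results of these data known. Between the Slc32a1 and Slc17a6 cells, 2 of the 3 genes for handling GABA and glycine with enough UMIs in every library were higher on the Slc32a1 side in all 4 libraries and 0 lower, with Abat, the enzyme that breaks GABA down, among them (43.8 against 6.88, 51.8 against 9.55, 88.2 against 16.3 and 45.2 against 13.3 CPM). Over all genes 0.435% were higher and 0.794% lower in all 4 libraries. Of 9 such factors of inhibitory neurons 4 were higher in all libraries (Pax2, Lhx1, Lhx5 and Tfap2a) and 0 lower. Of 13 such factors of excitatory neurons 4 were lower in all (Tlx3, Lhx2, Barhl1 and Pou4f1) and 1 higher, Neurog2, a proneural gene. In single libraries both lists were mixed, where 9.04% to 13.1% of all genes were called in a library. Of the 19 listed excitatory factors 6 were higher in at least 1 library, Neurod2 and Neurod6 in 3, and 13 were lower in at least 1. Of the 21 listed inhibitory factors 16 were higher in at least 1 library and 5 lower in at least 1, Dlx6 in 3. Acetylcholinesterase, Ache, was lower in the Slc32a1 cells of all libraries (10.9 against 32.4, 13.4 against 48.9, 20.8 against 100.9 and 32.9 against 120.1 CPM). None of the 11 glutamate receptor or 8 GABA and glycine receptor genes with enough UMIs passed in all libraries in either direction.

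Between GFP high and GFP low, Tubb3-positive cells had 13 of 88 list genes with enough UMIs called higher and 20 lower, beside a background of 3.92% and 2.62%. The GABA and glycine receptor list had 0 of 12 higher and 4 lower (median log2 ratio -0.63, all genes -0.03), with Glra2, a glycine receptor subunit, among the lower ones at 13.0 against 27.4 CPM. Glutamate receptors had 2 of 13 lower and 0 higher, with Grm5 at 9.52 against 22.1 CPM. The list of factors of excitatory neurons had 5 of 19 higher and 1 lower (median 0.28), with Barhl1, a homeobox gene of hair cells and neurons, at 40.9 against 3.79 CPM, Neurod1 at 562.6 against 139.4, Neurod6, another gene of its family, at 168.8 against 49.2, and Lhx9 the one lower, at 3.12 against 12.1. Factors of inhibitory neurons had 4 of 18 higher and 6 lower (median -0.44), with Gata3 at 8.05 against 30.2 CPM, Sall3 at 12.8 against 29.6, Tfap2b at 61.4 against 130.8 and Dlx5, higher, at 34.2 against 9.33. Of the list for cholinergic neurons 2 of 6 were higher and 3 lower, with Isl1 and Lhx3 higher (67.0 against 25.3 and 25.1 against 10.7 CPM), which are also genes of Merkel or hair cells, and Phox2a among the lower ones (0.493 against 31.6). Slc1a3, a glial glutamate transporter, was higher at 26.4 against 10.1 CPM, and Slc1a6, a neuronal one, lower at 5.91 against 16.0. The summed levels of the 13 hair cell markers (530.1 against 181.0 CPM) and of the 7 Merkel markers (3975 against 689.3) in the same cells moved with these lists, and their part was not tested.

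Between day 20 and day 16, 15 of 80 list genes were called higher and 12 lower in Tubb3-positive cells, beside a background of 3.88% and 5.87%. The genes named for this comparison were chosen after their values were seen. GABA and glycine receptors had 3 of 12 higher and 0 lower (median 0.52, all genes -0.06), with the GABA receptor subunit gene Gabra2 at 19.7 against 8.28 CPM and the glycine receptor subunit gene Glrb at 15.9 against 7.61. Factors of inhibitory neurons had 1 of 13 higher and 4 lower, with Tfap2b at 143.3 against 356.6 CPM, and factors of excitatory neurons 2 of 17 higher and 7 lower, with Lhx9 at 38.7 against 142.6. Of the genes that handle GABA and glycine 0 of 5 were called, and of those for cholinergic neurons 3 of 5 were higher. Slc1a6 was called higher, at 54.3 against 18.0 CPM.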

How the data were processed

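Single-cell RNA was read from 4 libraries of organoids, 1 for each group. The deposited values are UMI counts per gene and cell, made by the authors with Cell Ranger, version 6.1.2 per the file headers and 6.1.0 per the submitters' processing notes, which also name Seurat 4.0.6 and mm10. Which annotation they used is not given in the sources used here. By the labels these were nuclei, but the protocol names cells. Cells with at least 1000 genes and at most 15% mitochondrial UMIs were kept, and those with the highest Scrublet scores (0.8% for each 1000 cells; 125, 205, 112 and 146 cells) were removed by rank, because the automatic threshold marked only 2, 4, 1 and 4. Kept UMIs numbered 57535239, 42267160, 107003581 and 93058755 at day 16, day 20, GFP high and GFP low.

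Counts were summed over cells and scaled to 1000000 UMIs of the same cells (CPM). Gates were at least 10 per 10000 UMIs over Pou4f3, Myo7a, Otof, Lhx3, Lhfpl5, Espn, Grxcr1 and Gfi1 (hair cell), 50 of Ccer2 (Merkel) and 20 over Col1a1, Col1a2 and Col3a1 (mesenchyme). Thinning drew 5000 UMIs a cell at random, with seed 1. Intervals are exact Poisson (levels), Clopper-Pearson (shares) and conditional binomial (ratios), and cover counting error only. The size rule was tested on simulated counts. These were independent Poisson draws with no spread between cells or libraries, so the check covers counting error alone. List medians are of log2(CPM + 1) differences. Alternatives were other Tubb3, gene, mitochondrial and doublet limits, cells without hair cell or Merkel gated ones, other thinning, TMM factors (edgeR 4.0.16), mean per-cell CPM and no minimum. Named genes were the 8 members, Tubb3 and the 4 factors, up to 4 genes a list at 20 CPM with the largest ratio of GFP high to GFP low, and the 8 leading genes of each side at 50 CPM between Slc32a1 and Slc17a6 cells. Some genes of the lists are counted there but not reported here by name. The members and lists were chosen with earlier results of these data known. Software was Scanpy 1.11.5 with scipy 1.17.1, numpy 2.4.6 and pandas 2.3.3 under Python 3.11.15, and R 4.3.3.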

Additional observations from a re-analysis of the deposited data

Results flagged for a closer look

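The class differences with Neurod1 had opposite signs in the 2 day 21 libraries, but only part of them had intervals apart. The inhibitory share of Neurod1-positive minus Neurod1-negative cells was -19.4 points in GFP high, with intervals apart, and 3.41 points in GFP low, where they overlapped. The excitatory difference was 13.3 points in GFP high, where the intervals overlapped and thinning to 3000 UMIs gave -2.73 points, and -14.6 points in GFP low, with intervals apart. Each value rests on 1 library, and the difference between the libraries was not tested.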

How the results depend on the processing

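The inhibitory share in GFP high minus GFP low was -8.28 points with overlapping intervals. The intervals were apart at -7.87 with 1 Tubb3 UMI, -9.16 with Stmn2, Elavl3 and Elavl4, -8.49 after thinning to 3000 UMIs, -9.19 and -9.37 at full depth with 1 and 2 UMIs, -10.1 with another seed, -9.95 from Slc32a1 and Slc6a5 alone and -9.15 at 10% mitochondrial UMIs. Day 20 minus day 16 was -6.69, apart at -8.73 with 1 Tubb3 UMI, -6.61 and -10.9 with 2 and 10 per 10000, -9.62 without hair cell or Merkel gated cells and -7.58 with doublets kept. The excitatory difference of -4.33 was apart at -3.98 with 1 Tubb3 UMI, -4.57 with 2 per 10000, -6.33 from Slc32a1 and Slc6a5 alone and -4.74 with doublets kept.

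Otp cells were more inhibitory in 1 library, in 2 at full depth, with 1 Tubb3 UMI or 2 per 10000, and in 0 at 3000 UMIs. Neurod1 cells were less inhibitory in 2 libraries and in 0 at 3000 UMIs or 1 Tubb3 UMI. They were more excitatory in 0, and in 1 at full depth, 1 Tubb3 UMI or 2 per 10000, and less excitatory in 1, but in 0 at 1 Tubb3 UMI. Zic1 cells were less excitatory in 3 and in 1 at 3000 UMIs, 1 Tubb3 UMI or 10 per 10000. The Neurod1 inhibitory difference at day 16 turned from -13.7 to 0.28 points with 1 Tubb3 UMI. The cause was not tested.

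Members called between the GFP gates over all cells were 1, 2 with mean per-cell CPM and 5 with no minimum. Between days in Tubb3-positive cells they were 0, and 1 with no minimum, 1 Tubb3 UMI, 10 per 10000 or without gated cells. List genes lower at day 20 were 12, and 19 with no minimum. Over all alternatives, member ratios kept direction and side in 141, were stronger in 4 and weaker in 2. Differences by factor kept both in 131, were stronger in 10, weaker in 14 and reversed in 1. Class shares of a library moved outside their own interval in 69 alternatives and stayed inside it in 191. Counts moved in 20 and stayed the same or close in 67. With 1 library a group no replicate could be left out. No paired analysis was possible because each group has 1 library.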
